A study of Mus musculus with 9 samples.

Results

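Ribosome biogenesis and RNA polymerase I factors were followed as a set of 43 genes, picked by symbol from the 35275 genes of the deposited table. They code for subunits and initiation factors of RNA polymerase I (Pol I), the enzyme that transcribes the large ribosomal RNA precursor, and for nucleolar proteins that process this RNA and assemble it with ribosomal proteins. All 43 were found, and all 43 were among the 13082 genes with enough reads to be tested. Mouse embryonic fibroblasts (MEFs, strain C57Bl/6) grown in DMEM with serum were left in iso-osmolar medium or moved to DMEM with added sucrose, a sugar that cells take up poorly and that draws water out of them. With 200 mM sucrose the medium was at 500 mOsm (low intensity hyperosmotic stress), and with 300 mM at 600 mOsm (high intensity), each for 3 h. Poly-T selected mRNA was sequenced from 3 libraries per medium, 9 in all, to compare low with high intensity stress and each of them with unstressed cells. The labels do not say whether the 3 libraries of a medium came from separate cultures, so the p-values measure the spread between these libraries, which may be technical.

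Ribosomes are built in the nucleolus, where Pol I makes a long precursor RNA that is modified under the guidance of small nucleolar RNAs (snoRNAs), cut, folded and joined to ribosomal proteins. C/D box snoRNA particles guide methylation of the precursor and H/ACA box particles guide pseudouridylation, while separate sets of assembly factors build the small subunit (through the small subunit processome and pre-40S particles) and the large subunit (pre-60S particles). Making ribosomes takes up much of the energy and transcription of a growing cell, and stress that slows growth is known to act on Pol I.

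Reads on genes ranged from 21716042 to 26740832 per library, and 3 reads, taken as the floor of detection, corresponded to between 0.113 and 0.137 CPM (read counts scaled to a common library size, normalized by edgeR's TMM factors), a limit that covers counting error only. Exact two-sided permutation tests of total reads gave p = 0.2 for 500 mOsm against iso-osmolar medium, 0.8 for 600 mOsm against iso-osmolar medium and 0.4 between the intensities, where 0.1 is the smallest p that 3 against 3 libraries allow. The number of genes with at least 1 read was 16452 to 16871 in iso-osmolar medium, 18920 to 19222 at 500 mOsm and 17846 to 18031 at 600 mOsm, and its part in the results was not tested. Of 12 fibroblast markers, 12 had a mean above 1 FPKM (fragments scaled by gene length and by the reads of the library) in each medium, with a summed level between 5581 and 6491 FPKM. Of 5 epithelial markers, 0 had a mean above 1 FPKM in any medium, with sums per library from 0.0317 to 0.237 FPKM in iso-osmolar medium, 1.08 to 1.49 FPKM at 500 mOsm and 0.117 to 0.275 FPKM at 600 mOsm. Of 4 endothelial markers, 1 passed 1 FPKM, at 500 mOsm only, with sums from 0.202 to 0.246 FPKM, 3.26 to 3.72 FPKM and 0.55 to 0.901 FPKM in the 3 media. That marker was Pecam1, at 3.25 FPKM, with Cdh5 at 0.143 FPKM there and Tie1 at 0 in every medium. Among 6 immune markers, 5 were found and 3 passed 1 FPKM in each medium (Cd14, Cd68 and Lyz2), with sums from 18.3 to 21.8 FPKM, 11.9 to 23.4 FPKM and 17.9 to 26.2 FPKM, while the defining leukocyte gene Ptprc stayed at or under 0.0401 FPKM. Of 4 neural markers, 1 or 2 passed 1 FPKM, with sums from 2.44 to 2.65 FPKM, 3.71 to 4.57 FPKM and 2.96 to 3.56 FPKM. The part of these other markers in the results was not tested. In bulk RNA, fewer cells of a kind and less RNA per cell cannot be told apart.

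At 500 mOsm 13 of the 43 genes were lower than in iso-osmolar medium and 0 were higher (edgeR's quasi-likelihood test, adjusted p under 0.05). The 13 lower genes make 30.2% of the set, against 14.8% of all genes tested, and the 0 higher genes compare with 13.2% of all genes. Among higher genes 0 also passed an unadjusted p of 0.05 in edgeR, and DESeq2 called 0 as well. The fold changes were small, with a median log2 fold change over the 43 genes of -0.09 and a range from -0.61 to 0.08, where the median over all genes tested was 0.01. Of the 43 values, 34 were negative and 9 positive. Genes of this set are better measured than most, with a median standard error of 0.059 on the log2 scale against 0.099 over all genes, so small differences could pass the test. Among the 5643 genes with a mean level at or above the lowest of the set, 15.3% were lower and 10.8% higher at 500 mOsm.

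At 600 mOsm 8 of the 43 genes were lower than in iso-osmolar medium (18.6% of the set, against 20.0% of all genes tested) and 3 were higher (6.98%, against 15.1%). Over the set the median log2 fold change was 0.00058 and that of all genes 0.0075, and 21 values were negative and 22 positive. The lower share was therefore near that of all genes, and the higher share was under it. From 500 to 600 mOsm 11 genes were higher (25.6% of the set, against 11.9% of all genes tested) and 1 was lower (2.33%, against 17.2%). The median log2 fold change between the intensities was 0.10 over the set and 0.0061 over all genes, with 34 values positive and 9 negative. The 3 comparisons share libraries, so their calls are not independent of each other. In none of them did 23 of the 43 genes pass the test (53.5%, against 49.0% of all genes). For genes at or above the lowest level of the set, the shares were 20.1% higher and 25.9% lower at 600 mOsm against iso-osmolar medium, and 15.9% higher and 19.8% lower between the intensities.

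The counts at high intensity depended on how libraries were corrected. A smooth correction of each library for the GC content and length of transcripts, chosen after the data were seen, gave 0 higher and 14 lower genes of the set at 500 mOsm, 13 higher and 7 lower at 600 mOsm, and 18 higher and 1 lower between the intensities. The correction used deviations from the mean of all 9 libraries. It therefore also removes differences between media that follow GC content or length. Over all genes this correction turned the split at 500 mOsm from 1728 higher and 1931 lower to 2663 and 1957, and at 600 mOsm from 1977 and 2617 to 2859 and 2257. Between the intensities the split over all genes went from 1560 higher and 2250 lower to 1940 and 2178. Leaving out single libraries gave 6 to 11 genes of the set that were higher at 600 than at 500 mOsm, with 6 called without 500 mOsm replicate 1 or 600 mOsm replicate 3 and 7 without 600 mOsm replicate 1. Calls over all genes fell as well in these settings, from 1560 higher to 1152, 1112 and 1059 in this order. The 3 higher genes at 600 mOsm (against iso-osmolar medium) became 1 without iso-osmolar replicate 1, 600 mOsm replicate 1 or 600 mOsm replicate 3. Over all genes the number higher went from 1977 to 1414, 1395 and 1421 there. Summed over the set, these mRNAs took 1.19% ± 0.0280 of all reads (SD, n = 3) in unstressed cells, 1.11% ± 0.0230 under low intensity and 1.17% ± 0.0235 under high intensity stress. Exact two-sided permutation tests of this share gave p = 0.1 for 500 mOsm against iso-osmolar medium, 0.4 for 600 mOsm against iso-osmolar medium and 0.1 between the intensities, where 0.1 is the smallest p possible.

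**Figure D1:**
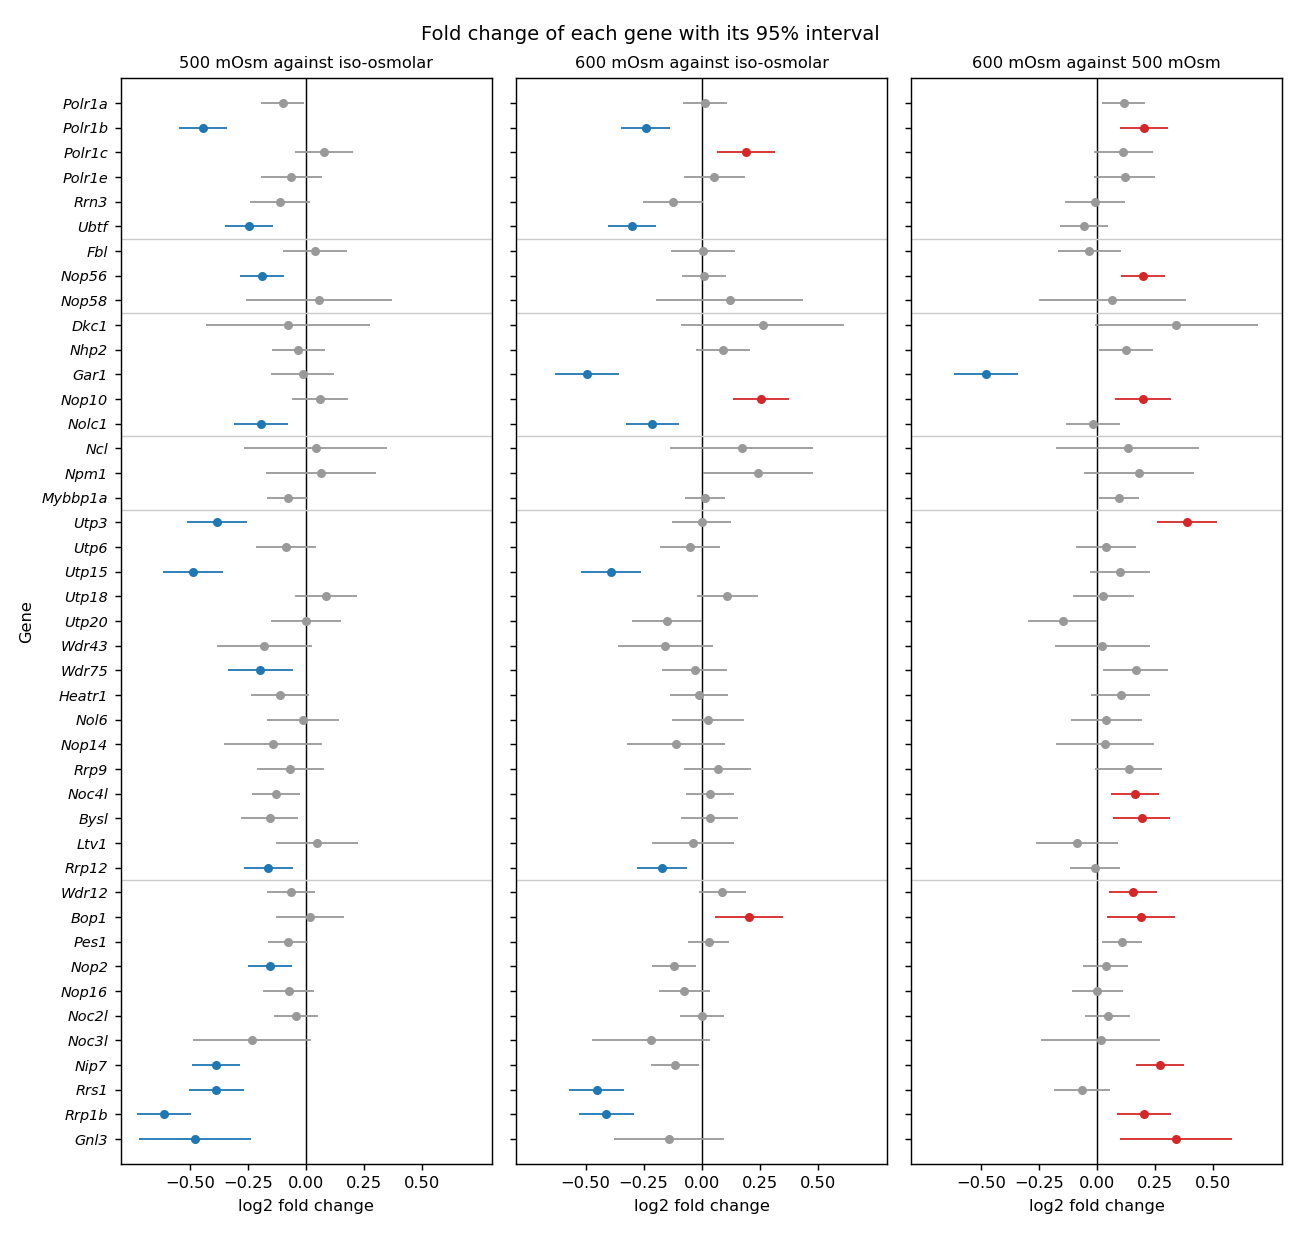
Log2 fold change (x axis) of each of the 43 genes (y axis, grouped by role) with its 95% interval from edgeR's fit, for 500 mOsm against iso-osmolar medium, 600 mOsm against iso-osmolar medium and 600 against 500 mOsm. Blue points are lower and red points higher at an adjusted p under 0.05 (13 and 0, 8 and 3, 1 and 11 genes), and grey points did not pass.

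**Figure D2:**
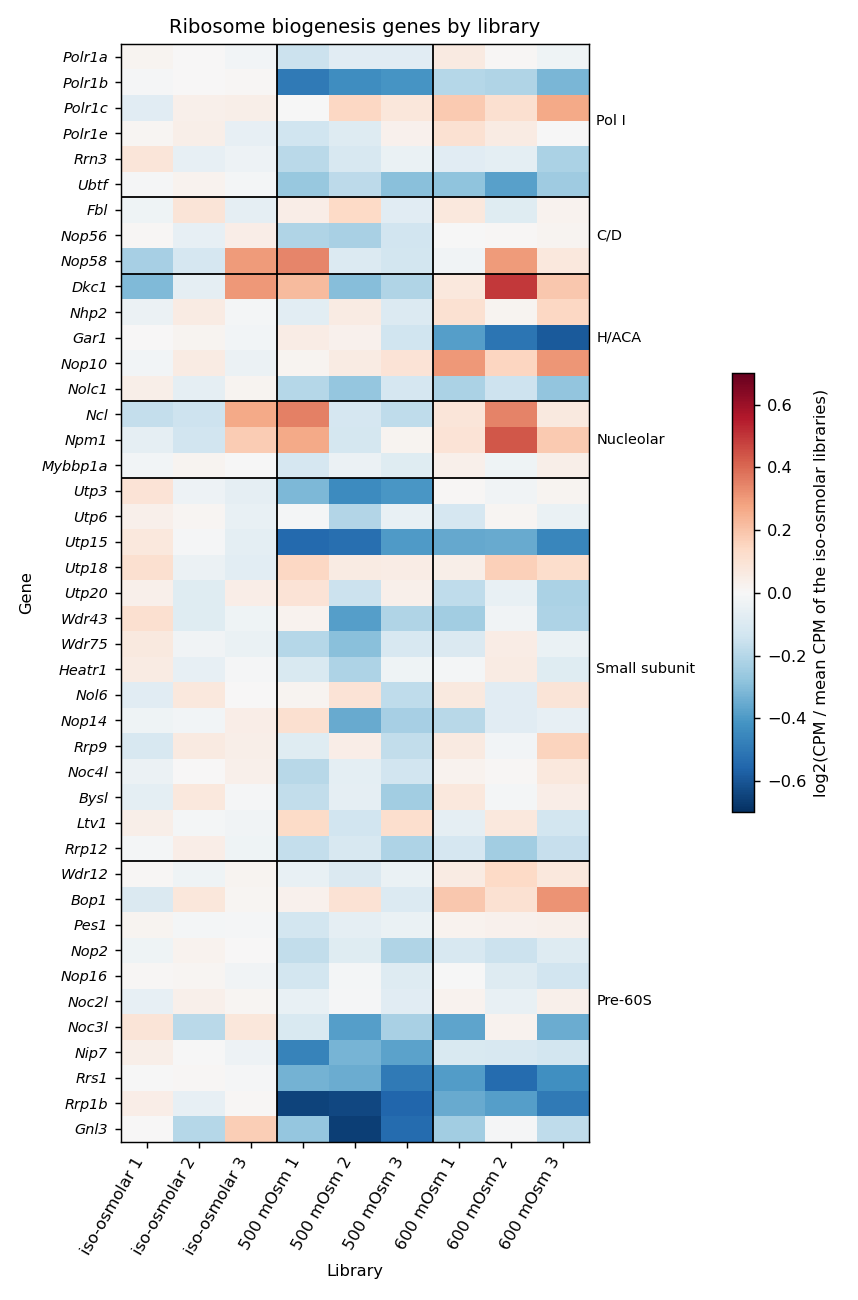
Heat map of the level of each gene (rows, by role) in each of the 9 libraries (columns), as the log2 ratio of its CPM to the mean CPM of the 3 iso-osmolar libraries. Polr1b, Utp3, Utp15, Nip7, Rrs1 and Rrp1b are blue in all 3 libraries at 500 mOsm, Gar1 is deep blue in the 3 at 600 mOsm, and Ncl, Npm1, Nop58 and Dkc1 vary within each medium.

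Promoter sequences of 36 of the 43 genes were matched by symbol in RefSeq (assembly GRCm38.p6, the assembly named mm10 in the processing notes), each 250 bases before to 50 bases after the start site. They were searched on both strands for CACGTG (the E-box bound by Myc family factors), CCAAT (the box bound by NF-Y) and CCGGAAG (a site of the ETS family). None of these is contained in another, and matches that overlap count once per promoter. CACGTG was found in 8 of the 36 promoters (22.2%, against 7.2% of 27025 promoters in the table), CCAAT in 14 (38.9%, against 37.9%) and CCGGAAG in 14 (38.9%, against 9.1%). Among the 11 promoters of genes lower at 500 mOsm, 1 held CACGTG, 6 held CCAAT and 4 held CCGGAAG, and among the 25 promoters of genes that did not pass at 500 mOsm the counts were 7, 8 and 10. A match is a description of letters in this window and not evidence that a factor binds there.

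The promoters of 7 genes follow, 5′ to 3′ on the strand of the gene, from 250 bases before to 30 bases after the start site, with matches to the 3 motifs in capitals (ATTGG and CTTCCGG are CCAAT and CCGGAAG read on the other strand). They were chosen because Rrp1b, Polr1b and Utp15 had the smallest p at 500 mOsm, Utp3 and Nip7 fell at 500 mOsm and were higher again at 600 mOsm, Gar1 was the one gene lower at 600 than at 500 mOsm, and Nop2 was the one gene lower at 500 mOsm with a CACGTG.
Rrp1b, chr17:32035912-32036191, plus strand: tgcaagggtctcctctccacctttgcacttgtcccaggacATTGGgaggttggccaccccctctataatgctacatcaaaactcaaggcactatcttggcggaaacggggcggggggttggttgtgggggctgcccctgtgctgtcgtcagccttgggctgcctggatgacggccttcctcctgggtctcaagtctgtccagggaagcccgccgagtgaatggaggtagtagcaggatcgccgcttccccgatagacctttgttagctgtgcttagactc
Polr1b, chr2:129100746-129101025, plus strand: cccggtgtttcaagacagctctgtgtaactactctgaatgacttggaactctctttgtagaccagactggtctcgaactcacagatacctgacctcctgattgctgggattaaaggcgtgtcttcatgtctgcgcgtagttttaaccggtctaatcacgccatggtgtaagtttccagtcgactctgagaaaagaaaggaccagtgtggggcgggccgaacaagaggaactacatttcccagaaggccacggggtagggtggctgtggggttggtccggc
Utp15, chr13:98262963-98263242, minus strand: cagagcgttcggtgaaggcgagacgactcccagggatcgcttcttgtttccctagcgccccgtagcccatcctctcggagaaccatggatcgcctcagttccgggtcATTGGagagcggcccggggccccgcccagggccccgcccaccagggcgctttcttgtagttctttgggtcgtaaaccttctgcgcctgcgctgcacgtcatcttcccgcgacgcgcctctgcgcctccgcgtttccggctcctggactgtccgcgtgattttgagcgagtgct
Utp3, chr5:88554212-88554491, plus strand: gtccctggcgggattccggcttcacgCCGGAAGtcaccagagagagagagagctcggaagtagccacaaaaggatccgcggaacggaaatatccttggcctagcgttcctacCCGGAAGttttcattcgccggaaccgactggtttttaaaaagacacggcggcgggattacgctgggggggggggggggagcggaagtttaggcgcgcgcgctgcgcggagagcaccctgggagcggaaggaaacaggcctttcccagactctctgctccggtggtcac
Nip7, chr8:107056627-107056906, plus strand: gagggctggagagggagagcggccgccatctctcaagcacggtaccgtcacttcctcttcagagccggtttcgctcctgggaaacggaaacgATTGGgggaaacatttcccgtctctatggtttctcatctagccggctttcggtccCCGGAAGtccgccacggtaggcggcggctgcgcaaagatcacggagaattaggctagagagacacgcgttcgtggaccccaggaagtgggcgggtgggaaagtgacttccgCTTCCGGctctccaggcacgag
Gar1, chr3:129831367-129831646, minus strand: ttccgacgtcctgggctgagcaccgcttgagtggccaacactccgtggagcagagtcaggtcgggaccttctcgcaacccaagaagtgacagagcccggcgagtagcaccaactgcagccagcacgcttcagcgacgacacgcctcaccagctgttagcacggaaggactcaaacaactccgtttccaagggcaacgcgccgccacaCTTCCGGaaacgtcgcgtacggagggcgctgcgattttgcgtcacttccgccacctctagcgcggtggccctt
Nop2, chr6:125131633-125131912, plus strand: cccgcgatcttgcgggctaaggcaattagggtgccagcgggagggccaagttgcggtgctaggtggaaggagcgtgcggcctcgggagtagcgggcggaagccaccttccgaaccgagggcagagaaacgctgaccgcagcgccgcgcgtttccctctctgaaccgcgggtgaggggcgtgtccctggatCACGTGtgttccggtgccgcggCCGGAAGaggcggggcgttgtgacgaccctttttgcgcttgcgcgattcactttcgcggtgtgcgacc
The Polr1b window holds none of the 3 motifs, Rrp1b and Utp15 hold 1 CCAAT each read on the other strand, and Gar1 holds 1 CCGGAAG read on the other strand. Utp3 holds 2 CCGGAAG, Nip7 holds 1 CCAAT and 2 CCGGAAG, and Nop2 holds 1 CACGTG and 1 CCGGAAG. No motif of the 3 was present in all 7 windows.

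Of the 6 genes of the Pol I machinery, Polr1b and Ubtf were lower at both intensities than in iso-osmolar medium, and Polr1c was higher at 600 mOsm. Among all genes tested, 14.8% were lower at 500 mOsm, and 20.0% lower and 15.1% higher at 600 mOsm. Polr1b (ENSMUSG00000027395, chromosome 2 of mm10, plus strand, 129100995 to 129126594) codes for the second largest Pol I subunit, which forms the catalytic core with Polr1a. It was at 147, 148 and 149 CPM in the iso-osmolar libraries, at 105, 109 and 111 CPM at 500 mOsm and at 129, 128 and 119 CPM at 600 mOsm. The 3 groups did not overlap, with 500 mOsm lowest and 600 mOsm between it and the unstressed cells. Its log2 fold change was -0.45 at 500 mOsm (SE 0.048, adjusted p = 1.55e-05), -0.24 at 600 mOsm (SE 0.048, adjusted p = 0.00197) and 0.20 between the intensities (SE 0.048, adjusted p = 0.00672), so that expression fell by 26.6% at 500 mOsm and by 15.4% at 600 mOsm. Ubtf (ENSMUSG00000020923, chromosome 11, minus strand, 102304560 to 102319742) codes for the HMG box factor UBF, which covers active ribosomal DNA. It was at 427, 437 and 425 CPM in iso-osmolar medium, 357, 378 and 351 CPM at 500 mOsm and 354, 331 and 362 CPM at 600 mOsm. Both stressed groups lay below every unstressed library and overlapped with each other. The log2 fold change of Ubtf was -0.25 at 500 mOsm (SE 0.047, adjusted p = 0.00158) and -0.30 at 600 mOsm (SE 0.047, adjusted p = 0.000391), and between the intensities it was -0.05 (95% interval -0.16 to 0.05, adjusted p = 0.436).

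Polr1c (chromosome 17, minus strand, 46243920 to 46248054) codes for a subunit that Pol I shares with RNA polymerase III. Its libraries were at 122, 132 and 133 CPM in iso-osmolar medium, at 129, 143 and 137 CPM at 500 mOsm and at 147, 139.8 and 155 CPM at 600 mOsm. Only the 600 mOsm group lay wholly above the unstressed one, and it overlapped with 500 mOsm. The log2 fold change of Polr1c at 600 mOsm was 0.19 (SE 0.058, adjusted p = 0.0226), and it did not pass without iso-osmolar replicate 1, 600 mOsm replicate 1 or 600 mOsm replicate 3 (adjusted p = 0.0963, 0.0591 and 0.0933). Polr1a, which codes for the largest subunit, had log2 fold changes of -0.10 at 500 mOsm (adjusted p = 0.1002) and 0.12 between the intensities (adjusted p = 0.0592). Of 20 alternative settings, 1 called Polr1a higher at 600 mOsm (values up to 0.23) and 2 between the intensities (up to 0.27). Polr1e, a Pol I specific subunit, and Rrn3, the factor that brings Pol I to its promoter, passed in no comparison. Rrn3 was at 163 ± 8.67, 150.3 ± 7.29 and 149.6 ± 8.83 CPM (SD, n = 3) in iso-osmolar medium, 500 and 600 mOsm, which gave -0.11 (adjusted p = 0.183) and -0.12 (adjusted p = 0.131) on the log2 scale against unstressed cells. Within the Pol I machinery the catalytic core subunits thus had unequal values, with a change of -26.6% in Polr1b at 500 mOsm and of -6.80% in Polr1a, which did not pass.

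**Figure D3:**
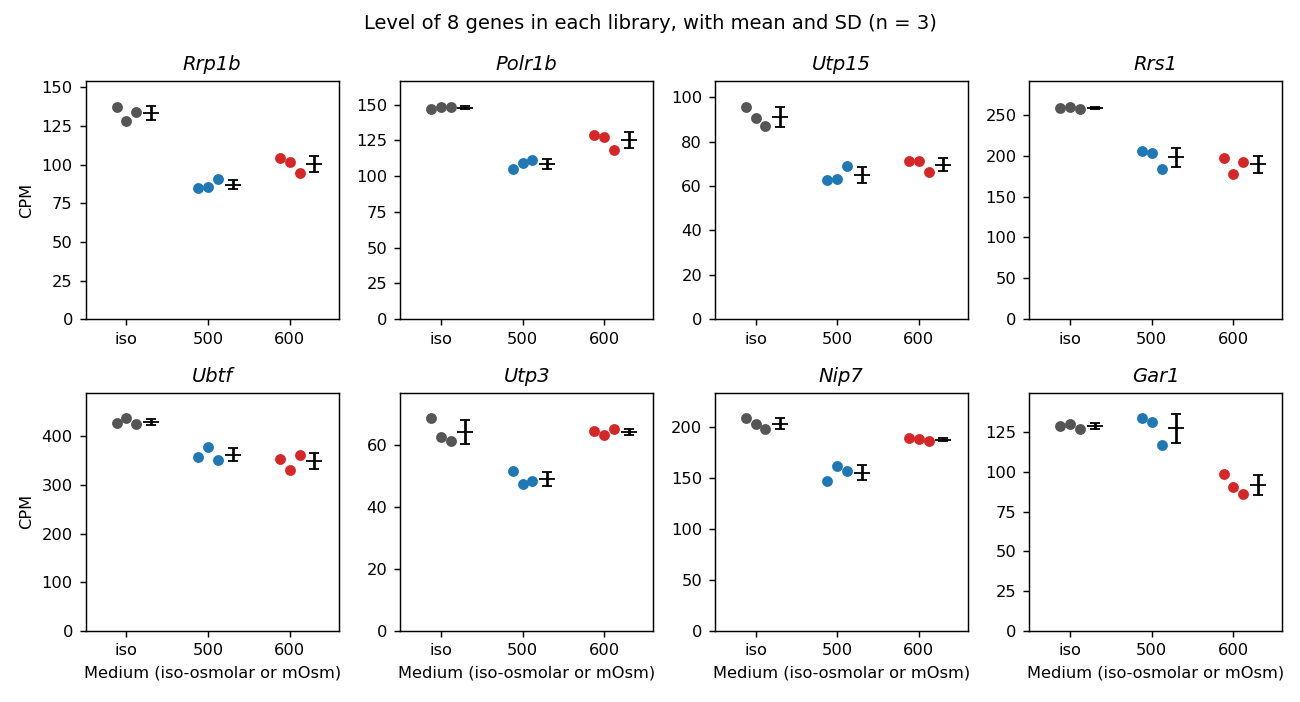
Level in CPM (y axis, from 0) of Rrp1b, Polr1b, Utp15, Rrs1, Ubtf, Utp3, Nip7 and Gar1 in each library (points) by medium (x axis), with the mean and SD of 3 libraries beside them. The first 5 genes stay under their unstressed level at 600 mOsm, Utp3 is back at 64.1 CPM, and Gar1 is lower only at 600 mOsm.

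Of the 3 C/D box proteins, Nop56 was lower at 500 mOsm and Fbl and Nop58 passed in no comparison. Among all genes tested, 14.8% were lower at 500 mOsm, 11.9% were higher between the intensities and 49% passed in no comparison. Nop56 (chromosome 2, plus strand, 130274430 to 130279313), a scaffold of the C/D particle, was at 451, 431 and 462 CPM in iso-osmolar medium, 387, 382 and 408 CPM at 500 mOsm and 448, 451 and 453 CPM at 600 mOsm. Every library at 500 mOsm lay below the others, while the 600 mOsm libraries lay within the range of unstressed ones. The log2 fold change of Nop56 was -0.19 at 500 mOsm (SE 0.044, adjusted p = 0.00544), 0.0088 at 600 mOsm (95% interval -0.09 to 0.10, adjusted p = 0.896) and 0.20 between the intensities (SE 0.044, adjusted p = 0.0044). At 600 mOsm 1 of 20 alternative settings called Nop56 higher, with values up to 0.12. Fbl, the methyltransferase of the particle, was at 361 ± 20.0, 371 ± 27.9 and 363 ± 19.9 CPM (SD, n = 3), with log2 fold changes of 0.04, 0.0073 and -0.03 in the 3 comparisons. Nop58, the partner of Nop56 in the scaffold, was at 74.0, 80.0 and 107 CPM in iso-osmolar medium, 110.3, 81.3 and 79.6 CPM at 500 mOsm and 85.4, 107 and 91.6 CPM at 600 mOsm. All its groups overlapped, and its log2 fold changes of 0.05, 0.12 and 0.07 had standard errors of 0.145 to 0.146, so a difference of the size seen in Nop56 could not have been resolved. Of 20 alternative settings, 1 called Nop58 higher at 600 mOsm and 1 between the intensities, with values up to 0.38 and 0.30.

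The H/ACA proteins held the one gene of the set that fell from 500 to 600 mOsm. In that comparison 17.2% of all genes tested were lower and 11.9% higher. Against iso-osmolar medium 14.8% of all genes were lower at 500 mOsm, and 20.0% lower and 15.1% higher at 600 mOsm. Gar1 (ENSMUSG00000028010, chromosome 3, minus strand, 129824912 to 129831396), a core protein of H/ACA particles, was at 129, 131 and 127 CPM in iso-osmolar medium, 134, 132 and 117 CPM at 500 mOsm and 98.6, 90.6 and 85.9 CPM at 600 mOsm. The 600 mOsm libraries lay below all 6 others, which overlapped. Gar1 thus fell by 28.9% at 600 mOsm, or -0.49 on the log2 scale (SE 0.063, adjusted p = 7.76e-05), and its difference between the intensities was -0.48 (SE 0.063, adjusted p = 0.000112), while at 500 mOsm it was -0.02 (95% interval -0.15 to 0.12). Nop10 (chromosome 2, plus strand, 112261926 to 112263269), another core protein of the same particle, moved the other way. It was at 99.5, 105 and 98.0 CPM in iso-osmolar medium, 102, 105 and 108 CPM at 500 mOsm and 124, 112 and 125 CPM at 600 mOsm, with every 600 mOsm library above all others. Its log2 fold change was 0.26 at 600 mOsm (SE 0.055, adjusted p = 0.00335) and 0.20 between the intensities (SE 0.055, adjusted p = 0.0166). The latter did not pass without 500 mOsm replicate 1 (adjusted p = 0.0625), 600 mOsm replicate 1 (0.0701) or 600 mOsm replicate 3 (0.0618).

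Nhp2, the third of these core proteins, had the highest level of the whole set per gene length, at 459 ± 11.3, 447 ± 22.0 and 482 ± 13.1 FPKM (SD, n = 3). Its libraries were at 462, 495 and 471 CPM in iso-osmolar medium, 452, 496 and 446 CPM at 500 mOsm and 513, 482 and 526 CPM at 600 mOsm, and all groups overlapped. Between the intensities the log2 fold change of Nhp2 was 0.13 (adjusted p = 0.0976), which passed without 500 mOsm replicate 2 (adjusted p = 0.0315) or 600 mOsm replicate 2 (0.0489). Dkc1, the pseudouridine synthase of the particle, had log2 fold changes of -0.08, 0.26 and 0.34 with standard errors of 0.162, and passed in no comparison. It passed at 600 mOsm without iso-osmolar replicate 3 (adjusted p = 0.0485) and between the intensities without 500 mOsm replicate 1 (adjusted p = 0.0355). Nolc1, a nucleolar chaperone of snoRNA particles, was at 382 ± 14.0, 334 ± 17.6 and 330.1 ± 15.1 CPM (SD, n = 3) and was lower in both stressed groups, with log2 fold changes of -0.20 at 500 mOsm (adjusted p = 0.0138) and -0.21 at 600 mOsm (adjusted p = 0.00789). Without 500 mOsm replicate 2 the former had an adjusted p of 0.0516. Among the mRNAs for proteins of 1 particle, Gar1 was thus lower and Nop10 higher at 600 mOsm, while Nhp2 and Dkc1 did not pass.

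The 3 abundant or multifunctional nucleolar proteins passed in no comparison, as was true of 49% of all genes tested. Mybbp1a (chromosome 11, plus strand, 72441355 to 72451768), a nucleolar regulator of Pol I and of other transcription, had the highest counts of the set. It was at 1953, 2007 and 1979 CPM in iso-osmolar medium, 1828, 1924 and 1864 CPM at 500 mOsm and 2028, 1936 and 2036 CPM at 600 mOsm. All 500 mOsm libraries lay below all others, yet the log2 fold change was -0.08 (SE 0.040, adjusted p = 0.166), and between the intensities it was 0.10 (SE 0.040, adjusted p = 0.0972). Npm1 (chromosome 11, minus strand, 33152287 to 33163206), which codes for nucleophosmin, a chaperone of the granular nucleolus, was at 627, 597 and 741 CPM in iso-osmolar medium, 788, 601 and 664 CPM at 500 mOsm and 699, 885 and 744 CPM at 600 mOsm. Its groups overlapped, and its log2 fold change at 600 mOsm was 0.24 (95% interval 0.0074 to 0.48, adjusted p = 0.101), or 0.34 without iso-osmolar replicate 3, where it passed (adjusted p = 0.0366). Ncl, which codes for nucleolin, was at 708 ± 125, 728 ± 153 and 798 ± 89.1 CPM (SD, n = 3), with log2 fold changes of 0.04, 0.17 and 0.13. Single libraries moved these values of Ncl, to -0.15 at 500 mOsm and 0.32 between the intensities without 500 mOsm replicate 1, and to 0.19 at 500 mOsm and 0.33 at 600 mOsm without iso-osmolar replicate 3, with no call. Ncl passed at 600 mOsm and between the intensities with no gene filter (adjusted p = 0.0166 and 0.0451) and when libraries were corrected for GC content and length over all media (0.43 and 0.35 on the log2 scale, adjusted p = 0.000546 and 0.0029).

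In the small subunit group 4 of 15 genes were lower at 500 mOsm (Utp3, Utp15, Wdr75 and Rrp12), 2 were lower at 600 mOsm (Utp15 and Rrp12), and 3 were higher at 600 than at 500 mOsm (Utp3, Noc4l and Bysl), with 0 higher than in iso-osmolar medium. Over all genes tested, 14.8% were lower and 13.2% higher at 500 mOsm. At 600 mOsm 20.0% of all genes were lower and 15.1% higher, and between the intensities 11.9% were higher. Utp15 (ENSMUSG00000041747, chromosome 13, minus strand, 98246845 to 98262992) belongs to the part of the processome that binds the precursor as it is transcribed. It was at 95.9, 90.9 and 87.0 CPM in iso-osmolar medium, 62.5, 63.2 and 69.2 CPM at 500 mOsm and 71.3, 71.3 and 66.4 CPM at 600 mOsm. Both stressed groups lay well below the unstressed one and overlapped with each other. The log2 fold change of Utp15 was -0.49 at 500 mOsm (SE 0.060, adjusted p = 4.30e-05) and -0.39 at 600 mOsm (SE 0.060, adjusted p = 0.000309). Utp3 (ENSMUSG00000070697, chromosome 5, plus strand, 88554483 to 88556083), also a processome protein, was at 68.5, 62.5 and 61.3 CPM in iso-osmolar medium, 51.5, 47.2 and 48.3 CPM at 500 mOsm and 64.3, 63.0 and 64.9 CPM at 600 mOsm. Here only the 500 mOsm libraries lay apart. The log2 fold change of Utp3 was -0.39 at 500 mOsm (SE 0.059, adjusted p = 0.000286), 0.00058 at 600 mOsm (95% interval -0.13 to 0.13) and 0.39 between the intensities (SE 0.059, adjusted p = 0.000338).

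Other genes of the small subunit group showed smaller values. Rrp12, which takes part in export of pre-40S particles, was at 251 ± 7.17, 224 ± 8.15 and 222 ± 10.0 CPM (SD, n = 3), with log2 fold changes of -0.16 at 500 mOsm (adjusted p = 0.024) and -0.17 at 600 mOsm (adjusted p = 0.0167). At 500 mOsm Rrp12 did not pass without iso-osmolar replicate 2, 500 mOsm replicate 1 or 500 mOsm replicate 3 (adjusted p = 0.0859, 0.059 and 0.0762), nor at 600 mOsm without iso-osmolar replicate 2 or 600 mOsm replicate 2 (0.0656 and 0.0646). Wdr75, which belongs to the same part of the processome as Utp15, was lower at 500 mOsm (-0.20 on the log2 scale, adjusted p = 0.0358), a call that was lost without iso-osmolar replicate 1 or 2 or 500 mOsm replicate 1 or 2 (adjusted p = 0.122, 0.0594, 0.0795 and 0.12). Of 20 alternative settings in all, 10 called Wdr75 at 500 mOsm, the other losses falling between adjusted p of 0.0505 (only the 2 groups fitted) and 0.083 (replicate block). Between the intensities Wdr75 was at 0.17 (adjusted p = 0.0694), and it passed there without 500 mOsm replicate 3 (0.0386). Noc4l was at 170.4 ± 4.28, 156 ± 6.78 and 175 ± 3.95 CPM (SD, n = 3), and Bysl, which acts late in small subunit assembly, at 256 ± 13.0, 229 ± 14.9 and 262 ± 8.01 CPM. From 500 to 600 mOsm the log2 fold change of Noc4l was 0.17 (adjusted p = 0.0192) and that of Bysl 0.19 (adjusted p = 0.0212), and their values at 500 mOsm against iso-osmolar medium, -0.13 (adjusted p = 0.0578) and -0.16 (adjusted p = 0.054), lay just past the threshold. Noc4l did not pass between the intensities without 500 mOsm replicate 1 or 600 mOsm replicate 3 (adjusted p = 0.0821 and 0.0649), and passed at 500 mOsm without 500 mOsm replicate 2 (0.0366). Bysl did not pass between the intensities without 500 mOsm replicate 1 or 3 or 600 mOsm replicate 1 or 3 (adjusted p = 0.0648, 0.076, 0.0778 and 0.0554), and passed at 500 mOsm without iso-osmolar replicate 1 (0.0382) or 500 mOsm replicate 2 (0.0141).

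The remaining genes of the small subunit group passed in no comparison. Utp18 (chromosome 11, minus strand, 93859243 to 93885766) had the largest positive value of the set at 500 mOsm. It was at 84.0, 75.5 and 73.9 CPM in iso-osmolar medium, 85.9, 81.0 and 80.5 CPM at 500 mOsm and 79.9, 87.5 and 84.7 CPM at 600 mOsm. The groups overlapped, and against unstressed cells its log2 fold changes were 0.08 (SE 0.061, adjusted p = 0.346) and 0.11 (SE 0.061, adjusted p = 0.177). Utp20 (chromosome 10, minus strand, 88746607 to 88826814), a very large scaffold protein, was at 158, 145 and 159 CPM in iso-osmolar medium, 165, 139 and 158 CPM at 500 mOsm and 136, 149 and 132 CPM at 600 mOsm. Its groups overlapped too. Utp20 had log2 fold changes of -0.0022 at 500 mOsm, -0.15 at 600 mOsm (adjusted p = 0.112) and -0.15 between the intensities (adjusted p = 0.131), and the last passed without 500 mOsm replicate 2 (-0.21, adjusted p = 0.0285). With the correction of libraries for GC content and length the sign of Utp20 turned at 600 mOsm, to 0.16 (adjusted p = 0.00612). Wdr43 and Nop14 had log2 fold changes of -0.18 and -0.14 at 500 mOsm with standard errors of 0.094 and 0.097, and passed there without 500 mOsm replicate 1 (adjusted p = 0.0247 and 0.00891). Utp6, Heatr1, Nol6, Rrp9 and Ltv1 had log2 fold changes between -0.11 and 0.14 over the 3 comparisons, and of these Rrp9 passed between the intensities without 500 mOsm replicate 2 (adjusted p = 0.0446). The same correction as for Utp20 brought Heatr1 to 0.24 at 600 mOsm (adjusted p = 0.000462) and 0.29 between the intensities (adjusted p = 0.000126), and Nol6 to 0.13 at 600 mOsm (adjusted p = 0.0243).

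The pre-60S group held Rrp1b, the gene with the largest change at 500 mOsm, and had 5 of 11 genes lower at 500 mOsm (Rrp1b, Gnl3, Nip7, Rrs1 and Nop2), 2 lower at 600 mOsm (Rrp1b and Rrs1), 1 higher at 600 mOsm (Bop1) and 5 higher at 600 than at 500 mOsm (Gnl3, Nip7, Rrp1b, Bop1 and Wdr12). Of all genes tested, 14.8% were lower at 500 mOsm, and 20.0% lower and 15.1% higher at 600 mOsm. Between the intensities 11.9% of all genes were higher. Rrp1b (ENSMUSG00000058392, chromosome 17, plus strand, 32036100 to 32062865), a nucleolar protein of early large subunit assembly, was at 138, 128 and 134 CPM in iso-osmolar medium, 84.9, 85.6 and 90.6 CPM at 500 mOsm and 105, 102 and 94.6 CPM at 600 mOsm. No groups overlapped, and the order was the same as in Polr1b. Rrp1b fell by 34.7% at 500 mOsm, or -0.61 on the log2 scale (SE 0.054, adjusted p = 2.55e-06). Under high intensity stress Rrp1b was at -0.41 (SE 0.054, adjusted p = 8.96e-05), and between the intensities it was 0.20 (SE 0.054, adjusted p = 0.013), which did not pass without 500 mOsm replicate 1 (adjusted p = 0.0502) or 600 mOsm replicate 1 (0.0616). Rrs1 (ENSMUSG00000061024, chromosome 1, plus strand, 9545408 to 9547455) takes part in loading the small ribosomal RNA of the large subunit. Its libraries were at 259, 260.4 and 258 CPM in iso-osmolar medium, 206, 204 and 184 CPM at 500 mOsm and 197, 178 and 193 CPM at 600 mOsm. Both stressed groups lay below the narrow unstressed range and overlapped with each other. Its log2 fold change was -0.39 at 500 mOsm (SE 0.055, adjusted p = 0.00015), -0.45 at 600 mOsm (SE 0.055, adjusted p = 4.82e-05) and -0.06 between the intensities (95% interval -0.18 to 0.06).

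Nip7 (ENSMUSG00000031917, chromosome 8, plus strand, 107056877 to 107060926), a factor for processing of the pre-60S RNA, was at 209, 203 and 198 CPM in iso-osmolar medium, 147, 162 and 157 CPM at 500 mOsm and 189, 188 and 186 CPM at 600 mOsm. The 3 groups did not overlap, and 600 mOsm lay between the other two. Its log2 fold change was -0.39 at 500 mOsm (SE 0.047, adjusted p = 4.46e-05), -0.11 at 600 mOsm (SE 0.047, adjusted p = 0.0788) and 0.27 between the intensities (SE 0.047, adjusted p = 0.000866). Gnl3, which codes for the GTPase nucleostemin, was at 51.1 ± 6.50, 36.7 ± 5.16 and 46.4 ± 3.91 CPM (SD, n = 3). Its log2 fold change at 500 mOsm was -0.48 (SE 0.110, adjusted p = 0.00532), and between the intensities it was 0.34 (SE 0.111, adjusted p = 0.0354), which did not pass without 500 mOsm replicate 2 or 3 (adjusted p = 0.0962 and 0.0999) or without 600 mOsm replicate 2 or 3 (0.103 and 0.0619). That difference of Gnl3 was called in 12 of the 20 alternatives. Nop2, an RNA methyltransferase of the large subunit, was at 631 ± 11.8, 566 ± 25.8 and 581 ± 11.7 CPM, with log2 fold changes of -0.16 at 500 mOsm (adjusted p = 0.0181) and -0.12 at 600 mOsm (adjusted p = 0.0546). At 500 mOsm Nop2 did not pass without iso-osmolar replicate 2 or 3 or 500 mOsm replicate 1 or 3 (adjusted p = 0.0618, 0.0501, 0.0545 and 0.0599), and at 600 mOsm it passed without 500 mOsm replicate 3 (0.0415). In all, 7 of the 20 alternatives called Nop2 lower at 600 mOsm.

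Bop1, Pes1 and Wdr12 code for the 3 proteins of the PeBoW complex, which is needed to process the large subunit RNA. Bop1 (chromosome 15, minus strand, 76452996 to 76477269) was at 357, 404 and 386 CPM in iso-osmolar medium, 389.5, 410.3 and 358 CPM at 500 mOsm and 435, 411 and 475 CPM at 600 mOsm. The 600 mOsm libraries lay above all others, one of them by a small margin. The log2 fold change of Bop1 was 0.21 at 600 mOsm (SE 0.067, adjusted p = 0.0317) and 0.19 between the intensities (SE 0.067, adjusted p = 0.0489). At 600 mOsm Bop1 did not pass without iso-osmolar replicate 1 or 3 (adjusted p = 0.126 and 0.0662) or without 600 mOsm replicate 1 or 3 (0.0681 and 0.134), and its difference between the intensities did not pass without iso-osmolar replicate 3 (0.0583), 500 mOsm replicate 1 or 3 (0.0953 and 0.165) or 600 mOsm replicate 1 or 3 (0.0929 and 0.186). Of the 20 alternatives, 15 called Bop1 at 600 mOsm and 11 between the intensities. Wdr12 was at 82.5 ± 1.44, 78.8 ± 1.55 and 87.8 ± 2.59 CPM (SD, n = 3), and from 500 to 600 mOsm its log2 fold change was 0.16 (adjusted p = 0.0255), which did not pass without 500 mOsm replicate 1 or 2 or 600 mOsm replicate 2 (adjusted p = 0.0512, 0.0698 and 0.0797). Only 10 of the 20 alternatives called Wdr12 between the intensities, and its adjusted p reached 0.145 by limma and 0.251 when GC content and length were corrected for within media. At 600 mOsm 1 alternative called Wdr12 higher than in iso-osmolar medium. Its values over the alternatives reached 0.34 at 600 mOsm and 0.38 between the intensities. Pes1 was at 358 ± 4.35, 339 ± 10.4 and 366 ± 0.845 CPM, and its log2 fold change between the intensities of 0.11 had an adjusted p of 0.0599, or 0.0497 without 500 mOsm replicate 3. All 3 genes of the complex had their highest mean at 600 mOsm, and Wdr12 and Pes1 but not Bop1 had their lowest at 500 mOsm.

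The least expressed gene of the set was Noc3l (chromosome 19, minus strand, 38788128 to 38819237), a factor for transport of pre-60S particles within the nucleus, at 7.32 ± 0.850, 6.20 ± 0.622 and 6.21 ± 1.11 FPKM (SD, n = 3). It was at 30.8, 25.4 and 30.6 CPM in iso-osmolar medium, 26.8, 22.2 and 24.7 CPM at 500 mOsm and 22.4, 29.5 and 22.7 CPM at 600 mOsm, and all groups overlapped. Neither its value at 500 mOsm (-0.24 on the log2 scale, adjusted p = 0.162) nor that at 600 mOsm (-0.22, adjusted p = 0.168) passed against unstressed cells, but the latter was -0.36 and passed without 600 mOsm replicate 2 (adjusted p = 0.0221). Even here the lowest count in a library was 536, far above the floor. Noc2l and Nop16 passed in no comparison, with log2 fold changes between -0.08 and 0.05. Per gene length, mean levels over the 9 libraries ran from 6.58 FPKM in Noc3l, 8.29 FPKM in Wdr12 and 9.53 FPKM in Nop58 to 432 FPKM in Npm1, 438 FPKM in Mybbp1a and 463 FPKM in Nhp2. These levels depend on the gene lengths listed in the deposited table, which are long for Wdr12 (10012 bases), Nop58 (9507 bases) and Ncl (8202 bases).

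Libraries of the same medium differed in a way that followed the GC content of transcripts. Taken over genes, which share libraries and are no independent replicates, the deviation of a library from the mean of its medium correlated with GC content at Pearson's r between -0.602 and 0.591, most negative in 600 mOsm replicate 2 and most positive in 500 mOsm replicate 2. Ncl, Npm1, Nop58 and Dkc1 have GC contents of 42.8%, 42.4%, 41.0% and 43.6% and were highest in iso-osmolar replicate 3, 500 mOsm replicate 1 and 600 mOsm replicate 2. Those libraries had r of -0.194, -0.300 and -0.602. Iso-osmolar replicate 1 had a more negative r (-0.278) than replicate 3, yet Ncl, Nop58 and Dkc1 were lowest there. At 500 mOsm replicate 3 had r of -0.261, close to replicate 1, with Ncl at 627 against 904 CPM. Levels of these genes thus did not always follow r. Their SD within a medium was 0.237, 0.179, 0.239 and 0.267 on the log2 scale, against a median of 0.108 over all genes. After a correction for GC content and length within each medium, which leaves the means of the media as they are, the SD was 0.134, 0.124, 0.116 and 0.241. The SD did not fall in every gene of low GC content. It rose from 0.0325 to 0.166 in Wdr12 (GC content 40.4%) and from 0.0738 to 0.0838 in Utp18 (41.7%). With that correction the set held 17 lower and 0 higher genes at 500 mOsm, 11 lower and 5 higher genes at 600 mOsm, and 2 lower and 17 higher genes between the intensities. As without it, 0 genes of the set were higher at 500 mOsm. Over all 13082 genes tested, calls at 500 mOsm went from 1728 higher and 1931 lower to 2162 and 2286. At 600 mOsm they went from 1977 and 2617 to 2510 and 2984, and between the intensities from 1560 and 2250 to 2075 and 2639. Calls thus also rose over all genes.

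**Figure D4:**
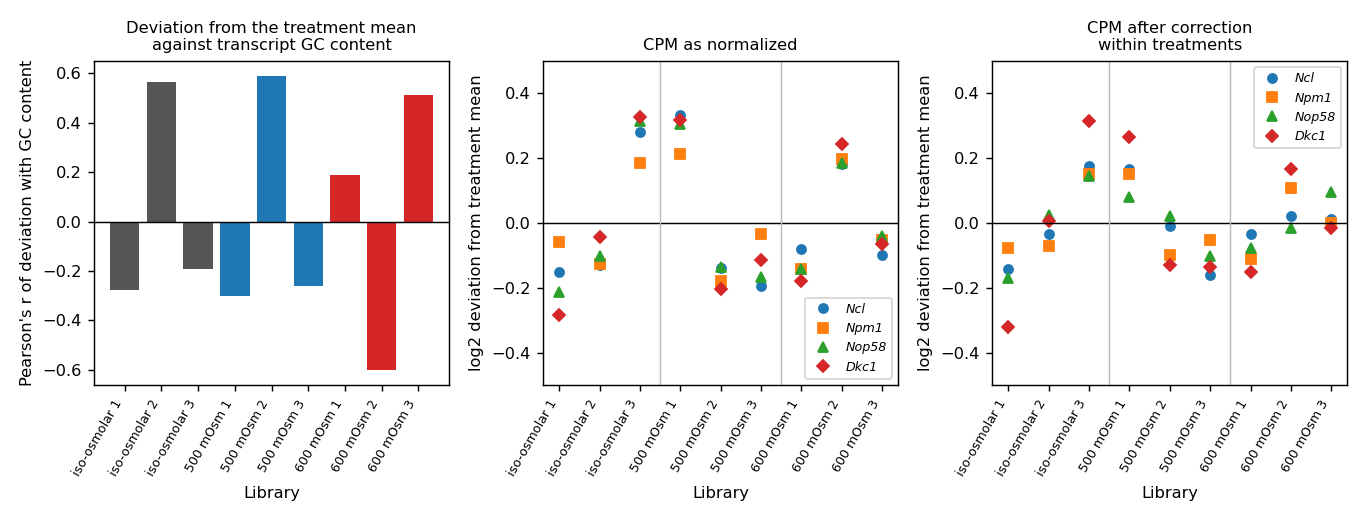
Left, Pearson's r across genes between transcript GC content and a library's deviation from the mean of its medium (y axis) for each of the 9 libraries (x axis), from -0.602 to 0.591. Middle and right, log2 deviation of Ncl, Npm1, Nop58 and Dkc1 from the mean of their medium, as normalized and after the correction within media, where Ncl, Npm1 and Nop58 draw closer to 0 and Dkc1 changes little.

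Other genes of the same pathway, listed by symbol and chosen with earlier results known, were counted in the same comparisons. Over all genes tested, 14.8% were lower and 13.2% higher at 500 mOsm, 20.0% lower and 15.1% higher at 600 mOsm, and 11.9% higher and 17.2% lower between the intensities. Of 10 further Pol I subunits and initiation factors, 10 were tested, 6 (60%) were lower and 0 higher at 500 mOsm, 2 were lower and 0 higher at 600 mOsm, and 4 were higher and 0 lower between the intensities, with medians of -0.35, -0.0083 and 0.17 on the log2 scale. The lower genes at 500 mOsm included Taf1c, Taf1a and Tbp, which code for parts of the promoter selectivity factor SL1 (log2 fold changes of -0.92, -0.45 and -0.48), the termination factor Ttf1 (-0.38) and the subunits Twistnb (-0.56) and Cd3eap (-0.31). At 600 mOsm Cd3eap (-0.35) and Ttf1 (-0.53) were lower. Of 41 further small subunit factors tested, 10 (24.4%) were lower and 0 higher at 500 mOsm, 5 lower and 2 higher at 600 mOsm, and 8 higher and 1 lower between the intensities (medians -0.07, 0.0018 and 0.10). Utp23 had the largest change of that list at 500 mOsm, a log2 fold change of -0.80 (adjusted p = 5.82e-06), and the helicase gene Ddx21 was the one lower at 600 than at 500 mOsm (-0.27, adjusted p = 0.0026). Of 48 further pre-60S factors tested, 16 (33.3%) were lower and 0 higher at 500 mOsm, 8 lower and 2 higher at 600 mOsm, and 11 higher and 1 lower between the intensities (medians -0.12, -0.04 and 0.10). Sdad1 (-0.67), Urb1 (-0.53) and Urb2 (-0.48) had the smallest p of that list at 500 mOsm, and at 600 mOsm Urb1 was still at -0.56.

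Some of these genes share exon bases with neighbours, and the sources used here do not say whether counting used the strand. On the opposite strand, Noc2l shares 598 exon bases with Samd11, Bysl 361 with Ccnd3, Polr1a 185 with Gm26628, Heatr1 155 with Lgals8, Nop14 144 with Gm15522, Pes1 138 with 4930556J24Rik, Mybbp1a 131 with Spns2, Wdr12 61 with Carf, Wdr43 60 with CT010429.2 and Rrp1b 54 with Hsf2bp, and without strand, reads from such a pair cannot be told apart there. Gnl3, Ncl, Nop56 and Nop58 have snoRNA genes inside their exons as annotated. At least 300 bases at 95% identity or more were shared by 5 of the 43 genes with other annotated genes, not all of which the deposited table lists. For Npm1, which has 4 such copies, the reads of those listed came to 0.41% of its own, and for Noc2l, Pes1, Wdr12 and Nop56 to at most 0.053%.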

How the data were processed

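Poly-T selected mRNA of 9 MEF libraries was sequenced in pairs of reads. The submitters' processing notes name CASAVA 1.8, STAR (version not given) and the mouse build mm10, and the tool that counted reads is not given in the sources used here. The authors deposited 1 table with a raw read count and an FPKM value per gene and library, a gene length and their own group means, fold changes and p-values from DESeq2, and these last columns were not used. FPKM values were recomputed from the deposited counts and lengths, with a largest relative difference of 4.99e-12. Samples were grouped by the labels. The members and all gene lists were chosen with earlier results of these data known.

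Genes were filtered with filterByExpr (13082 kept) and scaled by TMM, and counts of all 9 libraries were fitted together with edgeR 4.0.16 (R 4.3.3), glmQLFit and glmQLFTest, with Benjamini-Hochberg adjustment over all genes and a threshold of 0.05. Standard errors and 95% intervals came from the same fit. Scripts were tested on simulated data. Levels are TMM-normalized CPM, or FPKM where genes are compared with each other. Per-library values are given for the 3 genes of smallest p in each direction and comparison, the 2 with the smallest p in each role and those with the highest and lowest mean FPKM, and other genes are given more briefly.

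Alternatives were RLE size factors, library size alone, no filter, at least 10 counts in every library, a replicate block, DESeq2 1.42.0, only the 2 groups compared, limma 3.58.1 on log2(FPKM + 1) and log2(FPKM + 0.1), an adjusted p under 0.01, a minimum change of 1 on the log2 scale, and each library left out. Corrections for GC content and length (mgcv 1.9.3), over all libraries or within media, were added after seeing the data. Gene positions are those of the deposited table, equal to GENCODE vM21 for 27 of 43 genes, and promoters are from RefSeq (GRCm38.p6). Shared sequence was searched with blastn (300 bases or more at 95% identity or more).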

Additional observations from a re-analysis of the deposited data

How the results depend on the processing

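With a minimum change of 1 on the log2 scale, 0 of the 43 genes were called in any comparison and direction. For 500 mOsm against iso-osmolar medium, 10 to 13 genes were lower with each library left out, and the median was -0.11 with no gene filter, -0.075 with at least 10 counts in every library, -0.045 after correcting libraries for GC content and length, and -0.12 to -0.091 with each library left out. For 600 mOsm against iso-osmolar medium, 6 genes were higher with no filter, 13 with the correction over all libraries, 5 with the correction within media, 1 at an adjusted p under 0.01, and 1 to 4 with each library left out. The median was -0.019 by library size alone and by limma -0.018 and -0.018 (pseudocounts of 1 and 0.1), and -0.024 to 0.0086 with each library left out. Between the intensities, 18 genes were higher with the correction over all libraries, 17 within media, 4 at an adjusted p under 0.01 and 6 to 11 with each library left out. The number lower was 2 with the correction within media and 1 to 2 with each library left out, 2 being called without 500 mOsm replicate 2. Its median was 0.087 by library size alone, 0.12 with no filter, 0.091 with at least 10 counts, 0.085 and 0.087 by limma, and 0.086 to 0.11 with each library left out. Over all genes, leaving out each library gave 1655 to 2007 lower at 500 mOsm and 1395 to 2047 higher at 600 mOsm. Between the intensities it gave 1059 to 1556 higher and 1878 to 2334 lower. No filter gave 2351 of 23419 genes higher at 600 mOsm. Signs turned for some genes of the set. At 500 mOsm Utp20 was 0.011 with at least 10 counts and 0.052 with the correction, and Bop1 was -0.0028 with no filter. At 600 mOsm, library size alone and limma with both pseudocounts gave -0.0110, -0.0102 and -0.0103 for Nop56, -0.0051, -0.0053 and -0.0053 for Mybbp1a and -0.0194, -0.0177 and -0.0180 for Utp3, and the correction over all libraries gave -0.0187 for Utp3, -0.0170 for Nhp2, 0.16 for Utp20 and 0.24 for Heatr1, the last 2 being called. Between the intensities that correction gave 0.017 for Ubtf and 0.11 for Utp20, and limma gave -0.0043 and -0.0060 for Noc3l. With each library left out, signs also turned at 500 mOsm for Nop58 (-0.11 to 0.23), Gar1 (-0.053 to 0.041), Npm1 (-0.050 to 0.16), Utp20 (-0.054 to 0.055), Bop1 (-0.044 to 0.066), Ncl (-0.15 to 0.19), Dkc1 (-0.26 to 0.097), Fbl (-0.026 to 0.094) and Nol6 (-0.088 to 0.059), at 600 mOsm for Nop56 (-0.020 to 0.031) and Utp3 (-0.032 to 0.050), and between the intensities for Nop58 (-0.027 to 0.23) and Noc3l (-0.12 to 0.089). Values that were not called also turned sign in at least 1 alternative for Polr1a, Rrn3, Fbl, Nolc1, Utp6, Nol6, Rrp9, Ltv1, Nop14, Wdr43, Wdr75, Noc4l, Rrp12, Noc2l and Nop16. The correction over all libraries ended the calls at 600 mOsm of Polr1c (adjusted p = 0.0537), Nolc1 (0.0843) and Rrp12 (0.118) and that of Nop10 between the intensities (0.0824). The cause of these changes was not tested. DESeq2 gave the same numbers of calls as edgeR in each comparison and direction.

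When the replicate number was fitted as a block, 0 genes were higher and 11 lower at 500 mOsm, 2 higher and 8 lower at 600 mOsm, and 8 higher and 1 lower between the intensities. Over all genes the block gave 1430 higher and 1681 lower at 500 mOsm and 1525 and 2273 at 600 mOsm. Between the intensities it gave 1153 and 1936. Without the block these were 1728 and 1931, 1977 and 2617, and 1560 and 2250. The replicate numbers were not treated as pairing, which the labels do not state. Deviations of same-numbered libraries from their media correlated at -0.211 on average (9 pairs, -0.583 to 0.502, over 10339 genes), against 0.108 for the 18 pairs with different numbers. These correlations also carry the differences in GC content, with r of 0.563, 0.591 and -0.602 in the libraries numbered 2. They therefore cannot show whether libraries were paired. With 3 libraries per medium, the standard errors of Ncl, Nop58 and Dkc1 (0.142, 0.146 and 0.162 on the log2 scale at 500 mOsm) limit what could be resolved in these genes.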

Other observations

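The subunits of RNA polymerase III, which makes the small ribosomal RNA of the large subunit and the transfer RNAs, were counted beside those of Pol I. Of 11 subunits tested, 3 were lower at 500 mOsm and 0 higher, in a comparison where 14.8% of all genes were lower and 13.2% higher. These were Polr3d, Polr3f and Polr3g, with log2 fold changes of -0.31, -0.66 and -0.41 (adjusted p = 0.00131, 0.00182 and 0.022 in edgeR's quasi-likelihood test). At 600 mOsm Polr3d (-0.25, adjusted p = 0.00636) and Polr3f (-0.48, adjusted p = 0.0129) were lower and Polr3k (0.22, adjusted p = 0.0236) was higher, and between the intensities Polr3a was higher (0.16, adjusted p = 0.027). Shares at 600 mOsm were 18.2% lower and 9.09% higher, against 20.0% and 15.1% of all genes. Higher subunits between the intensities made 9.09%, against 11.9% of all genes, and 0 were lower, against 17.2%. The medians of the 11 subunits were -0.04, 0.0017 and 0.07 in the 3 comparisons.

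The RNA exosome trims ribosomal RNA precursors and degrades the spacers cut from them. Of its 12 tested subunits and cofactors, Exosc4 (-0.28, adjusted p = 0.00426) and Exosc3 (-0.20, adjusted p = 0.0192) were lower at 500 mOsm. At 600 mOsm Exosc7 was higher (0.17, adjusted p = 0.0354) and Mphosph6 lower (-0.26, adjusted p = 0.0378). Between the intensities Exosc7 and Exosc4 were higher, both at 0.29 (adjusted p = 0.00255 and 0.00419). As a share of the list, 16.7% were lower and 0 higher at 500 mOsm, against 14.8% and 13.2% of all genes tested. Shares at 600 mOsm were 8.33% lower and 8.33% higher, against 20.0% and 15.1%. Higher genes between the intensities made 16.7%, against 11.9%, and 0 were lower, against 17.2%. The medians of the exosome list were -0.07, 0.02 and 0.10, beside medians of 0.01, 0.0075 and 0.0061 over all genes tested.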
